A study of Mus musculus and Homo sapiens with 67 samples.

Results

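Developmental transcription factors encoded outside the HOX clusters were followed in 4 models of pancreatic ductal adenocarcinoma given an inhibitor of the polycomb enzyme EZH2, an inhibitor of active RAS, or both. The set was a list of 55 genes, classic targets of polycomb repression, found by symbol without regard to case. It was chosen with earlier results of these data known. Shares of the set that are given beside those of all genes therefore describe this list and are no independent test of polycomb targets. Each of the 55 matched 1 row in every table, of 60564 genes listed for the human lines and 55335 for the mouse samples. By family they are 8 forkhead (FOX) genes, 7 T-box genes, 5 each of the PAX, SOX and Iroquois (IRX) families, 4 NKX genes, 3 LIM homeobox (LHX) genes, SIX2, SIX3 and SIX4, pairs of GATA, OSR, MEIS, MSX, DLX and HAND genes, and PITX1, EMX2 and ALX4.

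Polycomb repressive complex 2 (PRC2) silences genes by methylating the tail of histone H3, and EZH2 is its catalytic subunit. Its best known targets are the regulators that lay out tissues and body axes in the embryo, which most adult cell types keep silent apart from the few that define their own lineage. In pancreatic tissue such factors mark developmental history: gut mesenchyme, endoderm, neural and endocrine lineages each carry a different subset.

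The human lines PSN1 and SW1990 and the mouse pancreatic cancer line KPC were grown in culture, and the mouse tumours are labelled as KPC orthotopic tumours. Their column headers in the deposited table name the line KPC1199, and whether the cultured line is the same one is not stated in the labels. Each model had 4 arms: control (DMSO for cells, vehicle for mice), tazemetostat (the EZH2 inhibitor), RMC-6236 (the RAS inhibitor) and the combination of both. Every arm held 3 libraries in the cell models and 4 in the tumours. No allele, Cre driver, clone, dose, treatment time, or host strain and age is given in the sample labels, and nothing in them says that cell libraries came from separate cultures. P-values for the cells therefore measure only the spread between these libraries, which may be technical.

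Values are FPKM, expression scaled to transcript length and library size, and read depth is not known from them. Between 11489 and 13414 genes reached 1 FPKM in a library. The 5 epithelial markers EPCAM, CDH1, KRT8, KRT18 and KRT19 were at 1 FPKM or more in every arm of all 4 models. Some fibroblast markers were present in culture. In PSN1, 4 of 10 reached 1 FPKM in every control library and 6 in every RMC-6236 library. Their sums over the 10 genes were 29.5 to 29.8 and 116 to 118 FPKM. In SW1990, 0 of 10 did so without drug and 2 under the combination, with sums of 0.909 to 1.22 and 25.3 to 28.4 FPKM. Their part in the results below was not tested. DUSP6, a direct output of RAS signalling, averaged 80.2 ± 0.66 FPKM in PSN1 control cells, 6.56 ± 0.091 under RMC-6236 (mean ± SD, n = 3), and 59.9 ± 6.2 and 10.9 ± 5.1 in the same arms of the tumours (n = 4). EZH2 itself was at 15.8 ± 0.31, 15.3 ± 0.95, 9.77 ± 0.51 and 7.63 ± 0.25 FPKM in control, tazemetostat, RMC-6236 and combination PSN1 cells. It fell with RMC-6236 in SW1990 and KPC cells too and rose with tazemetostat in SW1990, from 9.42 ± 0.37 to 12.9 ± 0.66 FPKM. In tumours it was not called in any comparison, with 5.41 ± 0.97 FPKM in control and 5.43 ± 0.44 with RMC-6236. Tazemetostat blocks the enzyme's activity, so the level of its RNA is no measure of the drug's action.

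Promoters of polycomb targets are typically rich in CpG dinucleotides, and RefSeq promoter windows of the mouse build GRCm38.p6 allowed a look at this for 35 of the 55 genes, in 44 windows of 300 bases. The median window of the set held 17.5 CpG dinucleotides, against 7.0 over all 32851 windows of the table, and 77.3% of the set's windows held 15 or more, against 34.6% of all. The ratio of observed to expected CpG had a median of 0.748 in the set and 0.384 over all windows. Gene types were not separated among all windows, so they are no background matched to the set. The 250 bases before the start are printed for 4 genes, with CpG in capitals and all other bases in lower case. The first pair is Nkx3-2 and Gata3, which came on with the combination in KPC cells, and the second is Nkx2-3, which rose in KPC cells and fell in KPC tumours with the combination, and Pax9, which fell in both.
Nkx3-2, chr5:41764221-41764470, minus strand: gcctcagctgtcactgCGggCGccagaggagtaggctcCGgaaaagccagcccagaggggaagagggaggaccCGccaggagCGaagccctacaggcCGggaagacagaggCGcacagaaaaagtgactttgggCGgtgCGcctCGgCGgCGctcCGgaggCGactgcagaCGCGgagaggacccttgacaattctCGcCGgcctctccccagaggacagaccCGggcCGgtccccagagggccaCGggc
Gata3, chr2:9878601-9878850, minus strand: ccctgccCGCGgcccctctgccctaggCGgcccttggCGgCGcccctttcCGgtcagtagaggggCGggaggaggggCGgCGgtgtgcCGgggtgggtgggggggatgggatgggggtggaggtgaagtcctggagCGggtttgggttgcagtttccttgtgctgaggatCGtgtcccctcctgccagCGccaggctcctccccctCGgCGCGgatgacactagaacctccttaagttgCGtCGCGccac
Nkx2-3, chr19:43612075-43612324, plus strand: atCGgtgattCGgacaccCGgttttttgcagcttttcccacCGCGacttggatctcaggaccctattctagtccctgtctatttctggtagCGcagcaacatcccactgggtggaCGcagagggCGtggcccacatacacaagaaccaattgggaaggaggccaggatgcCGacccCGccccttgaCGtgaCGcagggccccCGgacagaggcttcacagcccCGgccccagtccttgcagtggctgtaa
Pax9, chr12:56695221-56695470, plus strand: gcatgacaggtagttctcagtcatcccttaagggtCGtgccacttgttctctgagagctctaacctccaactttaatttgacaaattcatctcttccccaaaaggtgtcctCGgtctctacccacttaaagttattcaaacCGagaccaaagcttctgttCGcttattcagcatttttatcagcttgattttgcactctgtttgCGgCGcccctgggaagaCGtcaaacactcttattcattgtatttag
These stretches held 21 (Nkx3-2), 19 (Gata3), 14 (Nkx2-3) and 7 (Pax9) CpG dinucleotides. The printed genes are examples, and a relation of CpG number to drug response was not tested. Gata3 and Foxf2 also rose in KPC cells and fell in KPC tumours with the combination, and the same stretch of Foxf2 held 21. Their calls in tumours were lost when some single libraries were left out. Searched on both strands, the AP-1 motif TGACTCA (or TGAGTCA, its reverse complement) occurred in 2.27% of the set's windows and 5.2% of all windows. For the ETS motif CCGGAAG the shares were 4.55% and 8.86%, and for the E-box CACGTG 2.27% and 7.15%. GAGAG, a short repeat, occurred in 81.8% of the set's windows and 62.0% of all. These matches are descriptions of letters in a window and not of bound sites.

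A gene was called on in an arm when every library reached 1 FPKM, off when every library stayed below it, and mixed otherwise. In control, 21 of 55 genes were on in PSN1, 18 in SW1990, 12 in KPC cells and 16 in KPC tumours. The tumours are bulk tissue, in which fewer cells of a type and less RNA per cell cannot be told apart. As shares these were 38.2%, 32.7%, 21.8% and 29.1%, while 18.6%, 18.6%, 20.5% and 21.6% of all listed genes were on in the same tables. Gene types were not separated among all listed genes, so their shares are no background matched to the set. The forkhead genes FOXF2 and FOXQ1, the Iroquois genes IRX3 and IRX5 and the hindlimb factor PITX1 made up the 5 genes that were on in all 4 models. Another 22 were off in all 4, among them the neural and stem cell factors SOX1 and SOX2, the eye and islet factor PAX6, the islet factor NKX2-2, the heart factors NKX2-5, TBX5 and HAND1, the limb factor TBX4, and IRX1, IRX2 and IRX4. Of these, 15 reached 1 FPKM in no library of any arm or model.

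**Figure D1:**
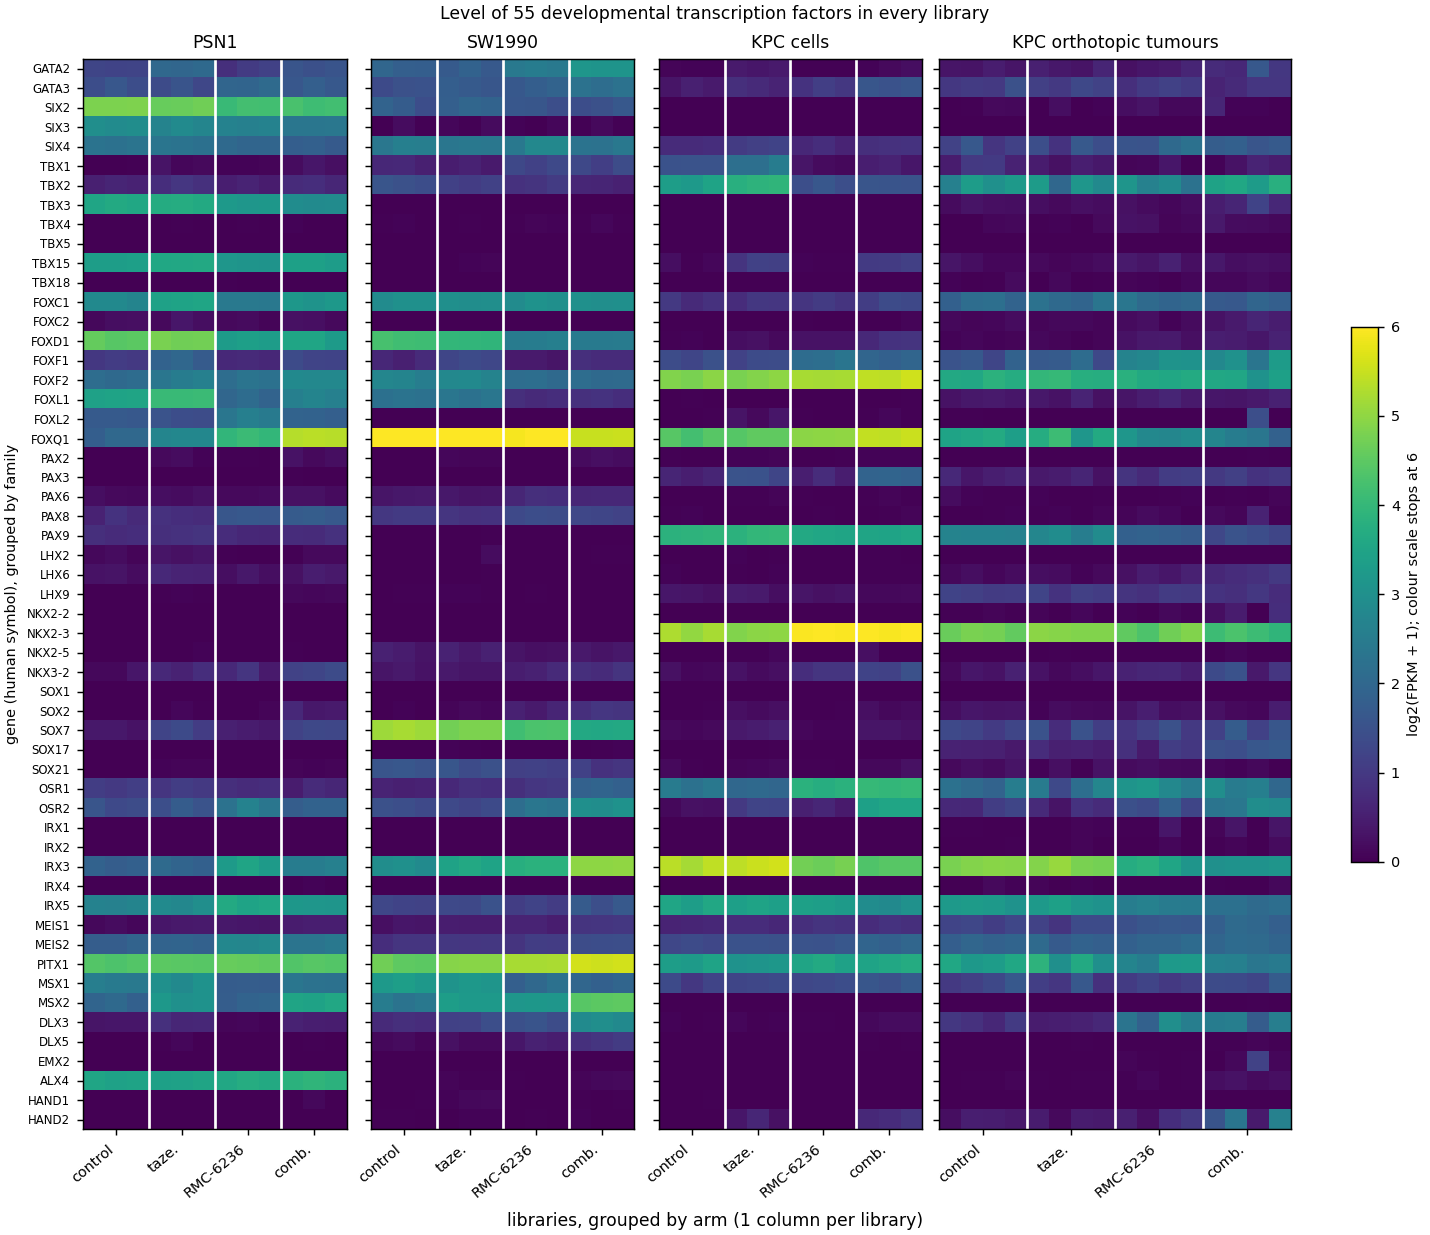
Level of each of the 55 genes, as log2(FPKM + 1), in every library of the 4 models, with arms in the order control, tazemetostat, RMC-6236 and combination (3 libraries per arm in cells, 4 in tumours). Rows for IRX3, IRX5, PITX1, FOXF2 and FOXQ1 are filled in all 4 panels, and 22 rows are below 1 FPKM in the control libraries of every panel.

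PSN1 and SW1990 shared 15 genes that were on and 28 that were off. The 6 genes ALX4, FOXL2, MEIS2, SIX3, TBX15 and TBX3 were on in PSN1 and off in SW1990, and SOX7, SOX21 and TBX2 were on in SW1990 and off in PSN1. KPC cells and tumours shared 11 genes that were on and 34 that were off. LHX9, MEIS1 and SOX7 were on in the tumours and off in the cultured cells.

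The highest level among the set in SW1990 control was that of FOXQ1, a forkhead factor of stomach and hair follicle, at 74.1, 73.8 and 70.8 FPKM, followed by the SOX-F gene SOX7 at 34.0, 36.0 and 34.0 FPKM. In PSN1 control the nephron progenitor factor SIX2 led at 27.1, 27.4 and 27.6 FPKM, with FOXD1 at 23.0, 20.6 and 21.4 FPKM and PITX1 at 20.2, 19.1 and 20.0 FPKM next. The 3 ranges did not overlap. Control KPC cells were led by Irx3 at 40.9, 35.4 and 41.7 FPKM and by the gut and spleen mesenchyme factor Nkx2-3 at 37.4, 31.6 and 36.4 FPKM, whose ranges overlap. The same pair led in control tumours, with 26.8 to 29.4 FPKM for Irx3 and 22.6 to 26.6 FPKM for Nkx2-3, which do not overlap.

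Some genes crossed between off and on under treatment. The number on in control, tazemetostat, RMC-6236 and combination was 21, 23, 21 and 25 in PSN1, 18, 20, 19 and 20 in SW1990, 12, 15, 12 and 18 in KPC cells, and 16, 12, 16 and 19 in tumours. In the same order, the share of all listed genes on was 18.6%, 19.3%, 19.8% and 20.3% in PSN1 and 18.6%, 19.1%, 18.7% and 19.6% in SW1990. It was 20.5%, 20.7%, 20.8% and 20.9% in KPC cells and 21.6%, 21.2%, 21.8% and 22.5% in tumours. Tazemetostat alone took SOX7 in PSN1, FOXF1 and DLX3 in SW1990, and Six4 and Pax3 in KPC cells from off to on. RMC-6236 alone took PAX8 in PSN1 and TBX1 and DLX3 in SW1990 from off to on, and it took FOXL1 in SW1990 and Tbx1 in KPC cells from on to off. With the combination the genes that went from off to on were PAX8, NKX3-2 and SOX7 in PSN1, TBX1, OSR1, MEIS2 and DLX3 in SW1990, Gata3, Tbx15, Pax3, Nkx3-2 and Osr2 in KPC cells, and Sox17 in tumours. TBX2 and FOXL1 in SW1990, Tbx1 in KPC cells and Lhx9 in tumours went from on to off with the combination.

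Changes between arms were tested on log2(FPKM + 1), which understates the change of low genes, with limma over every gene that reached 1 FPKM in at least 3 libraries (cells) or 4 libraries (tumours). That left 26 of the 55 genes in PSN1, 24 in SW1990, 20 in KPC cells and 21 in tumours, while 29, 30, 35 and 25 reached 1 FPKM in no library and the rest in too few. Among the tested genes 5, 6, 8 and 5 were not on in control. Such a gene passed with the help of treated arms where it was high, so the counts of called genes below describe the tested genes and say nothing of all 55. A call is an adjusted p below 0.05, log2 changes are given ± standard error, and the comparisons against control share their control libraries.

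EZH2 inhibition alone changed genes of the set in both directions in each cell model. In PSN1 it raised 15 and lowered 3 of 26, or 69.2%, with a median change of 0.17 (all genes -0.0036). Of all genes there, 46.0% of 13358 were called, 23.6% higher and 22.5% lower. Among the genes of the set, homeobox gene MSX2, forkhead genes FOXF1, FOXQ1 and FOXC1, SOX7 and GATA2 rose most. In SW1990 it raised 7 and lowered 4 of 24, or 45.8%, with a median of 0.03 (all genes 0.04). Of all genes there, 37.5% of 12913 were called, 23.1% higher and 14.4% lower. These shares and the median lie close to the background. MSX2, FOXF1, IRX3 and DLX3 led the increases. KPC cells had 9 genes raised and 3 lowered of 20, or 60.0%, with a median of 0.12 (all genes -0.04). Of all genes there, 44.1% of 12567 were called, 18.6% higher and 25.5% lower. Tbx15, Osr2, Pax3 and Tbx1 led the increases. Among the genes that were on in control, the counts were 12 raised and 3 lowered of 21 in PSN1, 4 and 4 of 18 in SW1990, and 4 and 3 of 12 in KPC cells. The split by control state was not made over all genes, so its counts have no background, here and for the comparisons below. The genes raised that were not on in control were FOXF1, NKX3-2 and SOX7 in PSN1, DLX3, FOXF1 and OSR1 in SW1990, and Gata3, Osr2, Pax3, Six4 and Tbx15 in KPC cells. In tumours limma called 0 of the 21 tested genes of the set and 0 of all 13545 tested genes (0.00%), with 1023 of the 13545 at an unadjusted p under 0.05.

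RAS inhibition alone moved genes of the set in both directions. RMC-6236 raised 11 and lowered 12 of 26 in PSN1, or 88.5%, where of all genes 80.4% of 13358 were called, 45.8% higher and 34.6% lower. It raised 10 and lowered 9 of 24 in SW1990, or 79.2%, where of all genes 72.4% of 12913 were called, 30.7% higher and 41.7% lower. In KPC cells it raised 10 and lowered 4 of 20, or 70.0%, where of all genes 73.7% of 12567 were called, 37.9% higher and 35.8% lower. In tumours it raised 5 and lowered 4 of 21, or 42.9%, where of all genes 39.4% of 13545 were called, 20.3% higher and 19.2% lower. These shares lie close to the background. Of the genes on in control, RMC-6236 raised 9 and lowered 10 of 21 in PSN1 and 6 and 8 of 18 in SW1990. It raised 7 and lowered 4 of 12 in KPC cells, and 2 and 4 of 16 in tumours. The genes raised that were not on in control were NKX3-2 and PAX8 in PSN1, and DLX3, OSR1, PAX8 and TBX1 in SW1990. In the mouse models they were Gata3, Nkx3-2 and Osr2 in KPC cells and Dlx3, Osr2 and Six4 in tumours. The genes that rose in both human lines were PITX1, GATA3, PAX8, OSR2 and IRX3, and those that fell in both were FOXF1, MSX1, FOXL1 and FOXD1, of 20 genes tested in both lines. FOXQ1, GATA2 and OSR1 moved in opposite directions in the 2 lines, and the fall of GATA2 in PSN1 was lost without RMC-6236 replicate 1 (-0.13, adjusted p = 0.056). Shared and opposite calls between the lines were not counted over all genes.

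**Figure D2:**
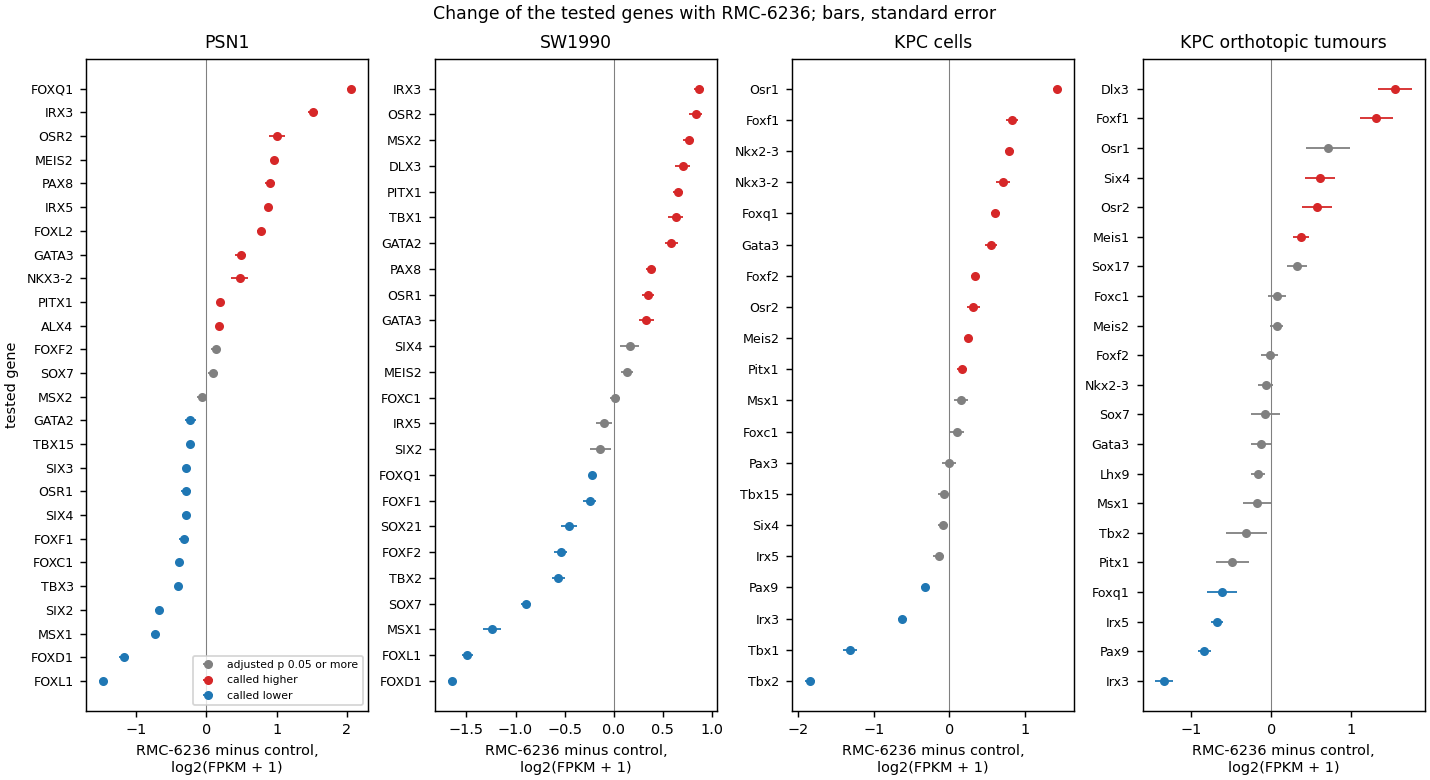
Change of each tested gene with RMC-6236 against control, as a difference of mean log2(FPKM + 1) with bars of 1 standard error, in the 4 models. FOXQ1 is at 2.06 in PSN1 and -0.22 in SW1990, and Irx3 is at -0.62 in KPC cells and -1.34 in tumours.

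Adding tazemetostat to RMC-6236 also changed genes of the set in both directions. Combination against RMC-6236 raised 12 and lowered 10 of 26 in PSN1, or 84.6%, where of all genes 54.2% of 13358 were called, 24.1% higher and 30.1% lower. It raised 11 and lowered 5 of 24 in SW1990, or 66.7%, where of all genes 48.0% of 12913 were called, 29.8% higher and 18.3% lower. In KPC cells it raised 12 and lowered 3 of 20, or 75.0%, where of all genes 48.8% of 12567 were called, 20.3% higher and 28.5% lower. The medians were 0.10, 0.04 and 0.26, where all tested genes had -0.03, 0.04 and -0.04. Among genes on in control the counts, again without a background, were 9 raised and 10 lowered of 21 in PSN1, 7 and 4 of 18 in SW1990, and 5 and 3 of 12 in KPC cells. In tumours Osr2 and Sox17 rose and Pax9, Nkx2-3, Irx3 and Irx5 fell, 6 of 21 or 28.6%, where of all genes 8.13% of 13545 were called, 5.16% higher and 2.97% lower. Osr2 and Sox17 were not on in control tumours, and the genes that fell were.

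Combination against control, both drugs against none, raised 16 and lowered 8 genes in PSN1, or 92.3%, where of all genes 82.6% of 13358 were called, 45.5% higher and 37.1% lower. It raised 12 and lowered 8 in SW1990, or 83.3%, where of all genes 79.2% of 12913 were called, 38.3% higher and 40.9% lower, and raised 14 and lowered 5 in KPC cells, or 95.0%, where of all genes 76.4% of 12567 were called, 37.8% higher and 38.7% lower. In tumours it raised 6, Six4, Foxf1, Sox17, Osr2, Meis1 and Dlx3, and lowered 9, or 71.4%, where of all genes 52.4% of 13545 were called, 26.7% higher and 25.7% lower. Among genes on in control the counts were 12 raised and 7 lowered of 21 in PSN1 and 7 and 8 of 18 in SW1990. They were 7 and 5 of 12 in KPC cells and 2 and 8 of 16 in tumours, and they too have no background.

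The interaction, the effect of tazemetostat with RMC-6236 minus its effect without, was called for 11 genes in PSN1 (4 positive, 7 negative), where of all genes 23.6% of 13358 were called, 9.80% higher and 13.8% lower. It was called for 10 in SW1990 (7 positive, 3 negative), where of all genes 15.2% of 12913 were called, 9.03% higher and 6.19% lower, and for 11 in KPC cells (7 positive, 4 negative), where of all genes 25.8% of 12567 were called, 12.1% higher and 13.7% lower. In tumours the genes were Osr2 (positive) and Nkx2-3 and Pax9 (negative), 3 of 21, where of all genes 1.86% of 13545 were called, 1.49% higher and 0.369% lower, and without combination replicate 4 the count was 1.

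The effect of tazemetostat could be read in 2 sets of libraries that share none: tazemetostat against control, and combination against RMC-6236. Both came from the same fit and filter and share the spread estimate of each gene, so their calls are not independent. In PSN1 16 of 26 tested genes, or 61.5%, were called in both, where 35.1% of all genes were. Of the 16, 11 rose in both (FOXC1, FOXF1, FOXF2, FOXL1, FOXQ1, GATA2, MSX1, MSX2, NKX3-2, SOX7 and TBX15), FOXL2 and SIX3 fell in both, and IRX5, PITX1 and TBX3 changed direction. SW1990 had 10 of 24, or 41.7%, called in both, where 27.5% of all genes were: DLX3, FOXF1, GATA3, IRX3, MSX2, OSR1 and PITX1 rose, and FOXQ1, SOX7 and TBX2 fell. KPC cells had 8 of 20, or 40%, where 28.3% of all genes were called in both, with Gata3, Meis2, Osr2, Pax3, Tbx1 and Tbx15 higher in both and Irx3 and Osr1 in opposite directions. Several genes higher in both were not on in control and passed the filter with the help of treated arms. They were FOXF1, NKX3-2 and SOX7 in PSN1, DLX3, FOXF1 and OSR1 in SW1990, and Gata3, Osr2, Pax3 and Tbx15 in KPC cells. Their rise therefore adds nothing to the shares set against all genes. The call of Tbx1 for the combination against RMC-6236 (0.27, adjusted p = 0.031) was lost with the replicate block (adjusted p = 0.05), without the filter (0.072), and without RMC-6236 replicate 2 (0.083) or 3 (0.10) or combination replicate 1 (0.081) or 2 (0.11). Some of these calls with tazemetostat alone were lost without single libraries: Gata3 in KPC cells without control replicate 1 (adjusted p = 0.072), GATA3 in SW1990 without control replicate 1 (0.087) and OSR1 in SW1990 without control replicate 2 (0.06). The calls of PITX1 and TBX3 in PSN1 and of Irx3 in KPC cells with tazemetostat alone were small (0.09, 0.10 and 0.18) and were lost without single libraries, such as control replicate 2 for PITX1 (adjusted p = 0.087) and Irx3 (0.13) and control replicate 1 for TBX3 (0.10).

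**Figure D3:**
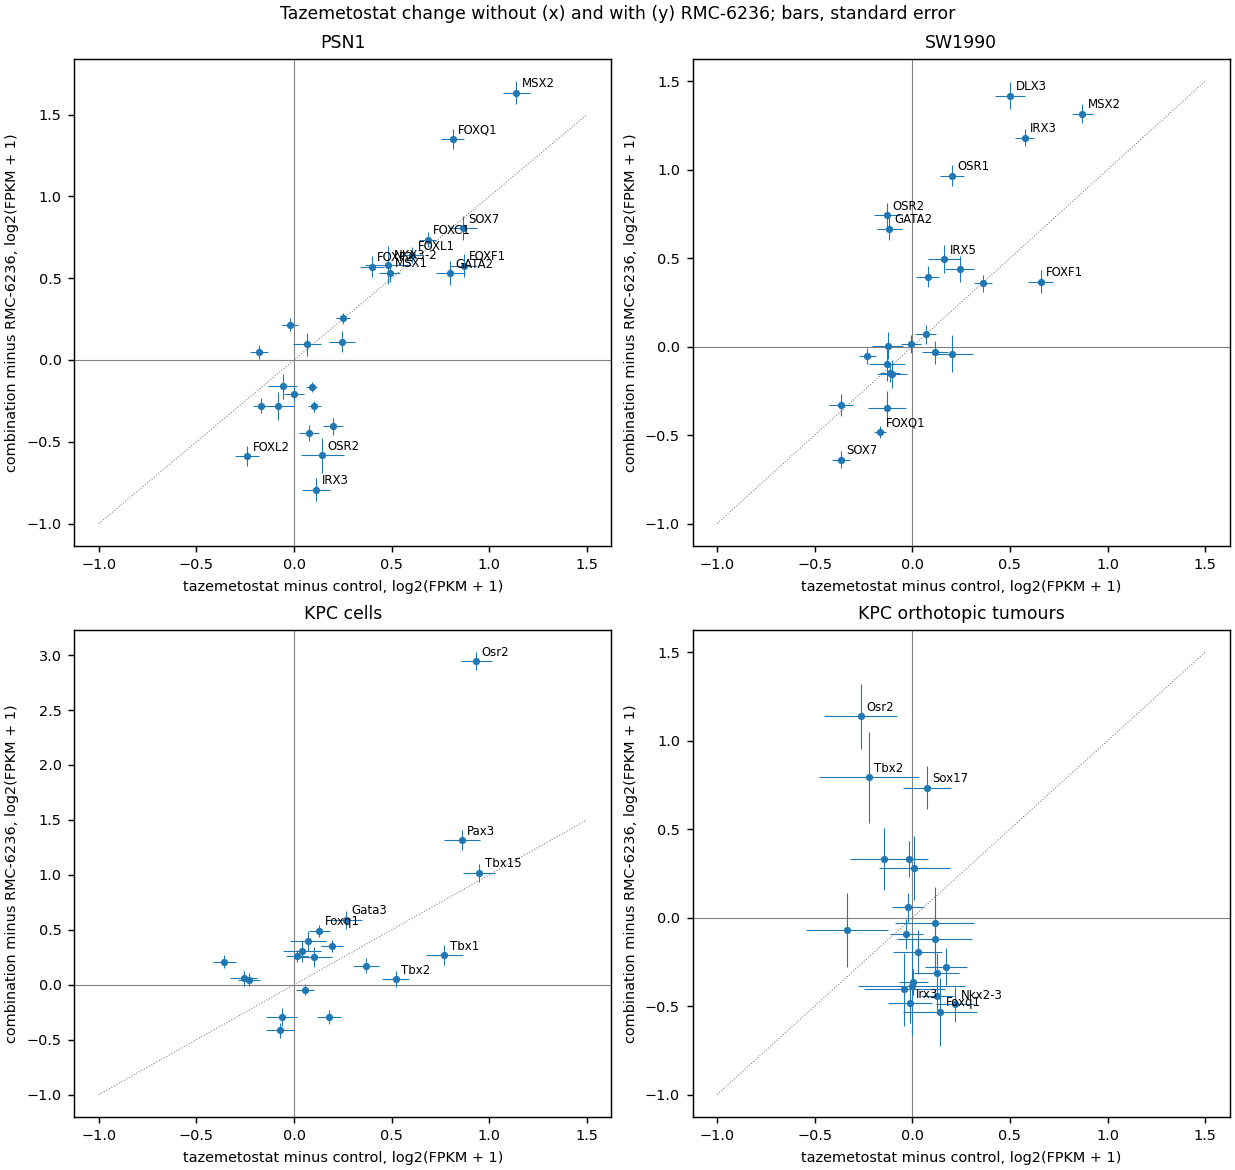
Change with tazemetostat alone (horizontal, tazemetostat minus control) against the change when it was added to RMC-6236 (vertical, combination minus RMC-6236), both as log2(FPKM + 1) with bars of 1 standard error, for each tested gene, and the dotted line of equal values. MSX2 lies at 1.14 and 1.64 in PSN1, and Osr2 lies far above the line in KPC cells at 0.93 and 2.95.

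MSX2, a homeobox factor of skull, limb and tooth development that responds to BMP signals, rose with tazemetostat in both human lines. PSN1 had 2.83, 3.17 and 2.59 FPKM in control, 8.13, 7.01 and 7.36 with tazemetostat, 2.42, 2.78 and 2.87 with RMC-6236 and 10.3, 9.93 and 11.2 with the combination. Control and RMC-6236 libraries overlapped, and all libraries with tazemetostat lay above both. Its change was 1.14 ± 0.07 (adjusted p = 4.4e-08) with tazemetostat, -0.07 ± 0.07 with RMC-6236 (adjusted p = 0.4) and 1.64 ± 0.07 (adjusted p = 7.5e-10) for the combination against RMC-6236. SW1990 had 4.69, 3.90 and 4.31 FPKM in control, 9.15, 8.40 and 8.47 with tazemetostat, 7.96, 8.01 and 7.93 with RMC-6236 and 20.8, 21.5 and 21.7 with the combination, so that each drug alone put every library above control and the combination lay higher still. There tazemetostat raised it by 0.87 ± 0.05, RMC-6236 by 0.76 ± 0.05 and the combination by 2.08 ± 0.05 (adjusted p = 7.3e-13). The interaction was called in both lines, at 0.50 ± 0.10 (adjusted p = 0.0026) in PSN1 and 0.45 ± 0.08 (adjusted p = 0.0014) in SW1990. Msx2 was listed at 0 in every library of KPC cells and stayed below 1 FPKM in every tumour.

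Its paralog MSX1 fell under RAS inhibition in both human lines. PSN1 had 4.91, 4.49 and 4.36 FPKM in control, 7.02, 6.24 and 7.29 with tazemetostat, 2.35, 2.42 and 2.34 with RMC-6236 and 4.09, 3.80 and 3.75 with the combination, with no overlap between any arm's libraries and those of control. The change was 0.49 ± 0.05 (adjusted p = 1.1e-05) with tazemetostat and -0.73 ± 0.05 (adjusted p = 5.4e-08) with RMC-6236. SW1990 had 8.31, 9.34 and 8.22 FPKM in control, 7.43, 8.18 and 7.78 with tazemetostat, 2.496, 3.07 and 3.75 with RMC-6236 and 2.97, 2.59 and 2.85 with the combination: both arms with RMC-6236 were low and did not separate from each other. RMC-6236 lowered it by 1.24 on the log2 scale (adjusted p = 5.2e-08), and the change with tazemetostat was -0.13 ± 0.09 (adjusted p = 0.3). In the 2 mouse models Msx1 was near the threshold, at 0.971 to 2.28 FPKM in KPC cells and 0.785 to 2.38 FPKM in tumours.

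**Figure D4:**
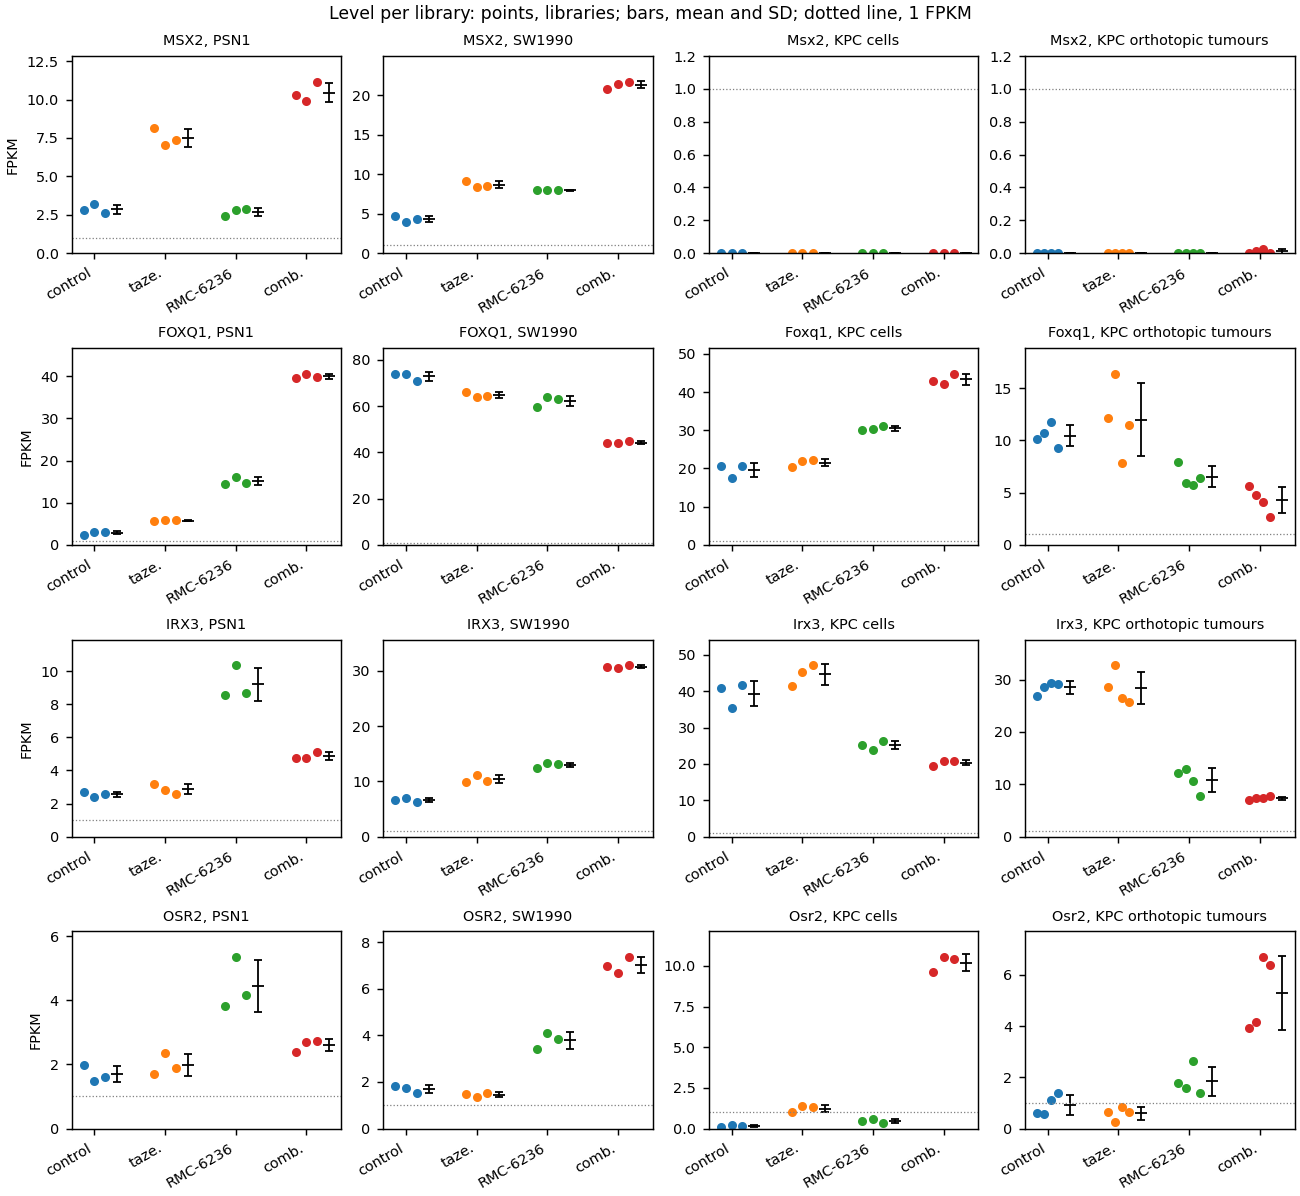
FPKM of MSX2, FOXQ1, IRX3 and OSR2 in every library (points) by arm in the 4 models, with the mean and SD of each arm as bars, each panel on its own scale from 0 and a dotted line at 1 FPKM. OSR2 in KPC cells stays at or below 1.36 FPKM outside the combination and lies between 9.60 and 10.5 FPKM in it.

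Among the forkhead genes FOXQ1 moved in opposite directions in different models, and the differences between models were not tested. PSN1 had 2.44, 3.08 and 3.08 FPKM in control, 5.63, 5.85 and 5.81 with tazemetostat, 14.4, 16.1 and 14.7 with RMC-6236 and 39.5, 40.6 and 39.8 with the combination. No 2 arms overlapped, and the order was control, tazemetostat, RMC-6236, combination. The change was 0.81 ± 0.06 (adjusted p = 2.8e-07) with tazemetostat, 2.06 ± 0.06 (adjusted p = 5e-12) with RMC-6236 and 3.41 ± 0.06 (adjusted p = 3.2e-14) with the combination. SW1990, where the gene started high, had 74.1, 73.8 and 70.8 FPKM in control, 66.2, 63.9 and 64.5 with tazemetostat, 59.7, 63.9 and 63.2 with RMC-6236 and 43.9, 44.0 and 44.8 with the combination. All treated libraries lay below all control libraries, with a change of -0.22 ± 0.03 (adjusted p = 4e-05) with RMC-6236 and -0.71 ± 0.03 (adjusted p = 2.4e-10) with the combination. KPC cells had 20.8, 17.6 and 20.6 FPKM in control, 20.5, 22.1 and 22.1 with tazemetostat, 29.96, 30.4 and 31.1 with RMC-6236 and 42.9, 42.1 and 44.8 with the combination, and the combination raised it by 1.10 ± 0.05 (adjusted p = 7.3e-10). KPC tumours had 10.1, 10.7, 11.7 and 9.29 FPKM in control, 12.1, 16.4, 7.86 and 11.5 with tazemetostat, 7.94, 5.95, 5.75 and 6.39 with RMC-6236 and 5.63, 4.73, 4.11 and 2.65 with the combination, so that control and combination did not overlap and the direction was opposite to that in KPC cells. In the tumours the change was -1.15 ± 0.19 (adjusted p = 0.00016) with the combination and -0.61 ± 0.19 (adjusted p = 0.019) with RMC-6236, a call that was lost without control replicate 3 (adjusted p = 0.054) or RMC-6236 replicate 3 (0.052).

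FOXF1 and FOXF2 specify the mesenchyme of gut and lung. FOXF1 in PSN1 had 0.950, 1.08 and 0.998 FPKM in control, 2.69, 3.03 and 2.31 with tazemetostat, 0.623, 0.632 and 0.590 with RMC-6236 and 1.59, 1.33 and 1.31 with the combination, and in SW1990 it had 0.587, 0.436 and 0.679 FPKM in control, 1.39, 1.59 and 1.42 with tazemetostat, 0.345, 0.353 and 0.262 with RMC-6236 and 0.760, 0.668 and 0.681 with the combination. Both lines had their highest values with tazemetostat alone and their lowest with RMC-6236 alone. The change with tazemetostat was 0.87 ± 0.07 (adjusted p = 7.2e-07) in PSN1 and 0.66 ± 0.06 (adjusted p = 5.2e-06) in SW1990, and with RMC-6236 -0.31 ± 0.07 (adjusted p = 0.0012) and -0.25 ± 0.06 (adjusted p = 0.0039). In mouse Foxf1 rose with RMC-6236, and the difference from the human lines was not tested. KPC cells had 1.62, 1.39 and 1.79 FPKM in control, 1.27, 1.58 and 1.61 with tazemetostat, 3.35, 3.53 and 4.04 with RMC-6236 and 2.87, 2.56 and 2.91 with the combination, and tumours had 1.89, 2.15, 1.40 and 2.72 FPKM in control, 2.18, 2.31, 3.32 and 1.46 with tazemetostat, 5.46, 5.82, 7.45 and 7.29 with RMC-6236 and 5.98, 7.21, 4.03 and 8.82 with the combination. Arms with and without RMC-6236 did not overlap in either. RMC-6236 raised Foxf1 by 0.84 ± 0.08 (adjusted p = 6.7e-07) in KPC cells and by 1.31 ± 0.20 (adjusted p = 0.00021) in tumours. FOXF2 had changes with the combination of 0.70 ± 0.06 (adjusted p = 2.4e-07) in PSN1, -0.57 ± 0.07 (adjusted p = 2.6e-06) in SW1990 and 0.60 ± 0.05 (adjusted p = 3.7e-07) in KPC cells. In tumours it was -0.30 ± 0.11 (adjusted p = 0.029), a call that was lost in 5 settings, among them without combination replicate 3 (-0.18, adjusted p = 0.096).

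FOXD1, a factor of kidney stroma, and FOXL1, a factor of the gut mesenchyme beneath the epithelium, fell with RMC-6236 in both human lines. FOXD1 in PSN1 had 23.0, 20.6 and 21.4 FPKM in control, 26.9, 25.0 and 25.6 with tazemetostat, 8.83, 9.39 and 8.998 with RMC-6236 and 10.6, 10.6 and 8.64 with the combination. The gene in SW1990 had 18.0, 16.8 and 16.7 FPKM in control, 14.8, 14.6 and 14.2 with tazemetostat, 4.62, 4.74 and 5.05 with RMC-6236 and 4.57, 4.57 and 4.63 with the combination. Arms with RMC-6236 lay below those without it, and adding tazemetostat left them overlapping in both lines. Its change with RMC-6236 was -1.17 ± 0.07 (adjusted p = 4.6e-09) and -1.65 ± 0.04 (adjusted p = 2.6e-12) in the 2 lines, and the combination differed from RMC-6236 by 0.11 ± 0.07 (adjusted p = 0.17) and -0.05 ± 0.04 (0.34). FOXL1 in PSN1 had 9.72, 10.2 and 10.4 FPKM in control, 15.7, 15.8 and 16 with tazemetostat, 2.92, 3.34 and 2.75 with RMC-6236 and 5.02, 5.56 and 5.13 with the combination, and in SW1990 it had 3.64, 3.91 and 3.75 FPKM in control, 4.15, 3.75 and 4.10 with tazemetostat, 0.743, 0.635 and 0.712 with RMC-6236 and 0.789, 0.842 and 0.710 with the combination. It fell by 1.47 and 1.49 on the log2 scale with RMC-6236 (adjusted p = 2.7e-11 and 3.9e-11), and in PSN1 tazemetostat raised it in both settings, by 0.60 ± 0.05 alone and 0.64 ± 0.05 on top of RMC-6236. Both genes stayed below 1 FPKM in all KPC libraries.

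The remaining forkhead genes are FOXC1, FOXL2 and FOXC2. FOXC1, which acts in eye and skull mesenchyme, rose in PSN1 from 5.57 to 6.19 FPKM in control to 9.85 to 10.6 FPKM with tazemetostat (0.69 ± 0.04, adjusted p = 6e-08), while its change in SW1990 was -0.01 ± 0.05 (adjusted p = 0.94). FOXL2, the ovary and eyelid factor, was tested only in PSN1, where RMC-6236 raised it by 0.78 ± 0.06 (adjusted p = 9e-08) and tazemetostat on top of RMC-6236 lowered it by 0.59 on the log2 scale (adjusted p = 3.9e-06). FOXC2 stayed below 1 FPKM in all libraries of all 4 models.

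IRX3 and IRX5, neighbouring Iroquois homeobox genes that pattern nervous system, heart and limb, were on in control in every model. IRX3 rose with RMC-6236 in both human lines and fell in both mouse models, a difference that was not tested. IRX3 in PSN1 had 2.69, 2.40 and 2.58 FPKM in control, 3.18, 2.79 and 2.58 with tazemetostat, 8.57, 10.3 and 8.69 with RMC-6236 and 4.76, 4.73 and 5.12 with the combination. RMC-6236 alone gave the highest values, and the combination fell between it and control. The change was 1.52 ± 0.07 (adjusted p = 4.8e-10) with RMC-6236, and adding tazemetostat gave -0.79 ± 0.07 (adjusted p = 9.1e-07). In SW1990 IRX3 had 6.65, 7.01 and 6.32 FPKM in control, 9.90, 11.2 and 10.1 with tazemetostat, 12.5, 13.3 and 13.2 with RMC-6236 and 30.7, 30.4 and 31.0 with the combination. There all arms were separate and the combination was highest, with 0.87 ± 0.05 (adjusted p = 3.6e-09) for RMC-6236 and 1.18 ± 0.05 (adjusted p = 1.1e-09) for tazemetostat on top of it. The interaction was thus negative in PSN1 (-0.91 ± 0.10, adjusted p = 2.8e-05) and positive in SW1990 (0.61 ± 0.07, adjusted p = 8.5e-05).

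In KPC cells Irx3 had 40.9, 35.4 and 41.7 FPKM in control, 41.5, 45.1 and 47.1 with tazemetostat, 25.3, 23.9 and 26.2 with RMC-6236 and 19.5, 20.7 and 20.8 with the combination, and in tumours it had 26.8, 28.7, 29.4 and 29.1 FPKM in control, 28.5, 32.7, 26.6 and 25.8 with tazemetostat, 12.1, 12.9, 10.6 and 7.78 with RMC-6236 and 7.04, 7.36, 7.32 and 7.71 with the combination. Control and tazemetostat libraries overlapped, and arms with RMC-6236 lay below them in both models. RMC-6236 changed Irx3 by -0.62 ± 0.06 (adjusted p = 1.1e-06) in cells and -1.34 ± 0.11 (adjusted p = 1.5e-06) in tumours. The further fall with the combination was -0.30 ± 0.06 (adjusted p = 0.0017) in cells and -0.48 ± 0.11 (adjusted p = 0.015) in tumours, the latter lost without RMC-6236 replicate 1 (adjusted p = 0.051) or with only the compared arms in the fit (0.068). Irx5 in tumours had 8.54, 8.78, 8.43 and 7.38 FPKM in control, 8.32, 9.71, 7.95 and 7.36 with tazemetostat, 4.86, 5.18, 4.61 and 4.57 with RMC-6236 and 3.67, 3.66, 3.19 and 3.52 with the combination, 3 levels without overlap apart from control and tazemetostat, which overlapped. It fell by 0.68 with RMC-6236 and by 1.04 with the combination on the log2 scale (adjusted p = 1.3e-05 and 8.3e-08). In KPC cells its change was -0.14 ± 0.07 (adjusted p = 0.087) with RMC-6236 and -0.55 ± 0.07 (adjusted p = 8.3e-06) with the combination. In PSN1 IRX5 rose with RMC-6236 by 0.88 ± 0.05 (adjusted p = 3.9e-09), and in SW1990 its change was -0.10 ± 0.08 (adjusted p = 0.28).

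The odd-skipped zinc finger genes OSR1 and OSR2 act in kidney, limb and palate mesenchyme. Osr2 had the largest interaction of the set in KPC cells. There it had 0.0979, 0.211 and 0.178 FPKM in control, 0.994, 1.36 and 1.32 with tazemetostat, 0.452, 0.566 and 0.345 with RMC-6236 and 9.60, 10.5 and 10.4 with the combination. Only the combination libraries were far above 1 FPKM, tazemetostat libraries lay around the threshold, and no arm overlapped another. The change was 0.93 ± 0.08 (adjusted p = 1.5e-06) with tazemetostat, 0.32 ± 0.08 (adjusted p = 0.0027) with RMC-6236 and 3.27 ± 0.08 (adjusted p = 9.8e-13) with the combination, with an interaction of 2.01 ± 0.11 (adjusted p = 6.8e-08). In tumours Osr2 had 0.623, 0.585, 1.12 and 1.37 FPKM in control, 0.647, 0.246, 0.830 and 0.655 with tazemetostat, 1.78, 1.59, 2.64 and 1.37 with RMC-6236 and 3.94, 4.17, 6.69 and 6.37 with the combination. Combination libraries were again above all others, while tazemetostat alone overlapped control and the lowest RMC-6236 tumour was level with the highest control tumour. The combination differed from control by 1.70 ± 0.19 (adjusted p = 3.5e-06) and from RMC-6236 by 1.14 ± 0.19 (adjusted p = 0.0016). RMC-6236 alone raised Osr2 by 0.57 ± 0.19 (adjusted p = 0.025), which was lost without control replicate 1 (adjusted p = 0.076), control replicate 2 (0.072) or RMC-6236 replicate 3 (0.086). Its interaction in tumours was 1.40 ± 0.26 (adjusted p = 0.013), and with a pseudocount of 0.1 the adjusted p was 0.057.

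In the human lines OSR2 had 1.82, 1.74 and 1.51 FPKM in control, 1.49, 1.35 and 1.53 with tazemetostat, 3.40, 4.11 and 3.86 with RMC-6236 and 6.98, 6.68 and 7.36 with the combination in SW1990 and 1.99, 1.49 and 1.61 FPKM in control, 1.71, 2.37 and 1.88 with tazemetostat, 3.81, 5.34 and 4.16 with RMC-6236 and 2.39, 2.70 and 2.72 with the combination in PSN1. Both had RMC-6236 above control, but the combination was the highest arm in SW1990 and lay below RMC-6236 alone in PSN1. The combination differed from RMC-6236 by 0.74 ± 0.07 (adjusted p = 1.1e-06) in SW1990 and -0.58 ± 0.11 (adjusted p = 0.0007) in PSN1. OSR1 in SW1990 had 0.504, 0.441 and 0.494 FPKM in control, 0.610, 0.782 and 0.722 with tazemetostat, 0.757, 0.926 and 0.986 with RMC-6236 and 2.66, 2.80 and 2.60 with the combination, with all combination libraries above all others and an interaction of 0.76 ± 0.08 (adjusted p = 6e-05). Osr1 in KPC cells had 4.60, 3.70 and 4.25 FPKM in control, 3.003, 3.17 and 2.94 with tazemetostat, 13.2, 12.4 and 13.2 with RMC-6236 and 15.3, 14.7 and 15.3 with the combination, where RMC-6236 raised it by 1.43 ± 0.06 (adjusted p = 1.3e-10) and tazemetostat alone lowered it by 0.36 on the log2 scale (adjusted p = 0.00029). In PSN1 OSR1 fell with the combination by 0.45 on the log2 scale (adjusted p = 0.00011), near the 1 FPKM threshold.

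DLX3, a homeobox factor of epidermis, hair and placenta, came on in SW1990 with each drug. SW1990 had 0.652, 0.765 and 0.698 FPKM in control, 1.25, 1.28 and 1.74 with tazemetostat, 1.77, 1.94 and 1.61 with RMC-6236 and 6.28, 6.75 and 6.20 with the combination. Single drugs gave values between control and combination, and each arm stood above control without overlap. The change was 0.50 ± 0.08 (adjusted p = 0.00019) with tazemetostat, 0.70 ± 0.08 (adjusted p = 1.9e-06) with RMC-6236 and 2.12 ± 0.08 (adjusted p = 1.5e-11) with the combination, with an interaction of 0.92 ± 0.11 (adjusted p = 8.2e-05). In tumours Dlx3 had 0.968, 0.812, 0.599 and 1.01 FPKM in control, 0.370, 0.422, 0.473 and 0.582 with tazemetostat, 3.94, 2.65, 6.82 and 4.88 with RMC-6236 and 4.77, 4.96, 2.33 and 4.96 with the combination. Arms with RMC-6236 were high and overlapped each other, and tazemetostat alone lay below control without a call. RMC-6236 raised Dlx3 by 1.54 ± 0.21 (adjusted p = 7e-05) in tumours, and the combination differed from it by -0.07 ± 0.21 (adjusted p = 0.89). DLX3 stayed below 1 FPKM in PSN1 and KPC cells. DLX5, a bone and jaw factor, was not tested in any model, and its highest values were 0.766, 0.888 and 1.07 FPKM in SW1990 with the combination.

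Among the T-box genes, in KPC cells Tbx2, a repressor active in heart and limb, had 9.15, 8.30 and 10.2 FPKM in control, 12.8, 13.8 and 14.3 with tazemetostat, 1.73, 2.07 and 1.72 with RMC-6236 and 1.99, 1.94 and 1.90 with the combination, and Tbx1, a factor of the pharyngeal arches, had 1.85, 1.90 and 1.89 FPKM in control, 3.55, 3.54 and 4.74 with tazemetostat, 0.259, 0.124 and 0.0917 with RMC-6236 and 0.419, 0.479 and 0.290 with the combination. Both were highest with tazemetostat alone and low in both arms with RMC-6236. Tazemetostat raised Tbx2 by 0.52 ± 0.07 (adjusted p = 6.6e-05) and Tbx1 by 0.77 ± 0.09 (adjusted p = 3.2e-05), and RMC-6236 lowered them by 1.85 and 1.32 on the log2 scale (adjusted p = 7.3e-11 and 3.9e-08). The interaction of Tbx2 was -0.47 ± 0.10 (adjusted p = 0.0035). That of Tbx1 was -0.50 ± 0.13 with a pseudocount of 1 and -0.04 with one of 0.1 (adjusted p = 0.95), so it depends on the scale. In tumours Tbx2 had 5.09, 9.02, 7.02 and 8.43 FPKM in control, 8.81, 2.98, 7.83 and 6.20 with tazemetostat, 7.80, 5.25, 6.33 and 3.80 with RMC-6236 and 9.96, 10.9, 8.76 and 12.7 with the combination, and no change was called.

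Tbx15, a skeletal patterning gene, was off in KPC cells unless tazemetostat was present. It had 0.161, 0.0207 and 0.0782 FPKM in control, 0.884, 1.22 and 1.195 with tazemetostat, 0.0398, 0.0276 and 0.0326 with RMC-6236 and 1.02, 1.06 and 1.199 with the combination. Both arms with tazemetostat lay near 1 FPKM and both without it near 0, and the change was 0.95 ± 0.08 (adjusted p = 1.5e-06) alone and 1.02 ± 0.08 (adjusted p = 6e-07) on top of RMC-6236. In PSN1, where TBX15 was on at 9.06 to 9.41 FPKM in control, the same 2 differences were 0.25 ± 0.03 (adjusted p = 7.2e-05) and 0.25 ± 0.03 (adjusted p = 4.5e-05). TBX3, a relative of TBX2, was on in control in PSN1 alone, at 10.6 to 11.4 FPKM, and fell to 6.32 to 6.58 FPKM with the combination (-0.69 ± 0.03, adjusted p = 6.4e-10). SW1990 had TBX2 at 1.97, 1.81 and 1.68 FPKM in control, 1.24, 1.10 and 1.24 with tazemetostat, 0.806, 0.873 and 1.05 with RMC-6236 and 0.552, 0.541 and 0.458 with the combination, a stepwise lower level with each treatment and -0.90 ± 0.06 (adjusted p = 1.6e-08) for the combination. TBX1 in SW1990 had 0.585, 0.608 and 0.446 FPKM in control, 0.400, 0.496 and 0.353 with tazemetostat, 1.45, 1.24 and 1.497 with RMC-6236 and 1.45, 1.16 and 1.62 with the combination, and it came on with RMC-6236 (0.63 ± 0.08, adjusted p = 7.3e-06), whereas Tbx1 fell in KPC cells, and the difference between the models was not tested. TBX4, TBX5 and TBX18 stayed below 1 FPKM in every library of the 4 models.

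Among the paired-box genes, Pax3, a factor of neural crest and muscle progenitors, followed tazemetostat in KPC cells. It had 0.530, 0.414 and 0.541 FPKM in control, 1.92, 1.87 and 1.38 with tazemetostat, 0.423, 0.693 and 0.389 with RMC-6236 and 2.74, 2.81 and 2.63 with the combination. Arms without tazemetostat overlapped below 1 FPKM, and arms with it were all above. The change was 0.86 ± 0.09 (adjusted p = 1.1e-05) alone and 1.32 ± 0.09 (adjusted p = 1.8e-07) on top of RMC-6236. Its interaction (0.46 ± 0.13, adjusted p = 0.021) was lost with a pseudocount of 0.1 (adjusted p = 0.089), without the filter (0.056) and without RMC-6236 replicate 3 (0.05). PAX8, a thyroid and kidney factor, followed RMC-6236 instead, with 0.488, 0.839 and 0.653 FPKM in control, 0.819, 0.722 and 0.657 with tazemetostat, 2.06, 2.12 and 2.10 with RMC-6236 and 2.29, 2.44 and 2.19 with the combination in PSN1. Arms with RMC-6236 were above 2 FPKM and arms without it below 1 FPKM, and the change with RMC-6236 was 0.90 ± 0.07 (adjusted p = 8.4e-08) in PSN1 and 0.37 ± 0.05 (adjusted p = 1.9e-05) in SW1990.

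Pax9, a factor of teeth, thymus and pharyngeal pouches, fell in both mouse models. KPC cells had 13.6, 13.6 and 14.3 FPKM in control, 13.4, 14.7 and 15.1 with tazemetostat, 11.4, 10.7 and 10.3 with RMC-6236 and 10.3, 10.2 and 10.8 with the combination, and tumours had 5.38, 5.29, 5.33 and 5.18 FPKM in control, 5.77, 6.58, 4.86 and 6.48 with tazemetostat, 2.59, 2.71, 2.502 and 2.29 with RMC-6236 and 1.44, 1.89, 1.68 and 1.38 with the combination. Both arms with RMC-6236 lay below control without overlap, and in tumours the combination lay below RMC-6236 alone. The change with RMC-6236 was -0.33 ± 0.05 (adjusted p = 4e-05) in cells and -0.84 ± 0.08 (adjusted p = 5.4e-06) in tumours, where the combination differed from RMC-6236 by -0.44 ± 0.08 (adjusted p = 0.0038). The interaction in tumours was -0.57 ± 0.12 (adjusted p = 0.021), and without combination replicate 4 the adjusted p was 0.053. PAX2 and PAX6 reached 1 FPKM in no library.

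NKX3-2, a factor of somites, cartilage and spleen, rose from low levels in 2 lines. In PSN1 it had 0.0996, 0.0873 and 0.291 FPKM in control, 0.624, 0.4996 and 0.730 with tazemetostat, 0.615, 0.909 and 0.345 with RMC-6236 and 1.26, 1.37 and 1.60 with the combination, and in KPC cells it had 0.212, 0.0793 and 0.0888 FPKM in control, 0.226, 0.131 and 0.195 with tazemetostat, 0.730, 0.898 and 0.915 with RMC-6236 and 1.31, 1.23 and 1.78 with the combination. Only the combination had every library above 1 FPKM. The combination differed from control by 1.06 ± 0.12 (adjusted p = 2.2e-06) in PSN1 and 1.11 ± 0.09 (adjusted p = 1.4e-07) in KPC cells. Nkx2-3 in KPC cells had 37.4, 31.6 and 36.4 FPKM in control, 28.2, 30.3 and 30.7 with tazemetostat, 61.1, 62.0 and 61.7 with RMC-6236 and 64.0, 60.2 and 67.1 with the combination, and in tumours it had 23.6, 26.6, 25.8 and 22.6 FPKM in control, 30.1, 29.3, 28.1 and 27.9 with tazemetostat, 22.2, 19.1, 24.9 and 28.0 with RMC-6236 and 16.3, 18.8, 16.3 and 14.3 with the combination. RMC-6236 raised it in the cells (0.80 ± 0.06, adjusted p = 4.2e-08), whereas in tumours RMC-6236 overlapped control and the combination lay below (-0.56 ± 0.10, adjusted p = 0.00025). Its interaction in tumours was -0.71 ± 0.14 (adjusted p = 0.017), with an adjusted p of 0.05 without combination replicate 4.

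GATA2, a blood and endothelial factor, and GATA3, a factor of T cells and mammary epithelium, were on in both human lines. GATA2 in PSN1 had 1.38, 1.32 and 1.34 FPKM in control, 3.10, 2.97 and 3.17 with tazemetostat, 0.746, 1.06 and 1.24 with RMC-6236 and 1.99, 1.76 and 1.94 with the combination, and in SW1990 it had 2.95, 2.55 and 2.48 FPKM in control, 2.24, 2.67 and 2.20 with tazemetostat, 4.41, 4.72 and 4.33 with RMC-6236 and 7.83, 7.67 and 7.60 with the combination. Tazemetostat gave the highest values in PSN1, and the combination did in SW1990, where tazemetostat alone overlapped control. The change with tazemetostat was 0.80 ± 0.08 (adjusted p = 2.5e-06) in PSN1, and the interaction in SW1990 was 0.78 ± 0.09 (adjusted p = 8.2e-05). Gata3 in KPC cells had 0.274, 0.433 and 0.359 FPKM in control, 0.756, 0.629 and 0.505 with tazemetostat, 0.846, 1.18 and 0.947 with RMC-6236 and 2.05, 1.85 and 2.06 with the combination, and it came on with the combination (1.14 ± 0.08, adjusted p = 3.2e-08). In tumours the same comparison gave -0.32 ± 0.12 (adjusted p = 0.04), which was lost without control replicate 4 (-0.20, adjusted p = 0.15), combination replicate 1 (0.12) or combination replicate 2 (0.095).

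SIX2, SIX3 and SIX4, factors of kidney, forebrain and muscle progenitors, fell in PSN1 with RMC-6236. SIX2 there had 27.1, 27.4 and 27.6 FPKM in control, 23.3, 23.7 and 25.2 with tazemetostat, 15.7, 17.4 and 17.1 with RMC-6236 and 18.3, 16.5 and 17.3 with the combination, with RMC-6236 and combination libraries overlapping each other below the rest (-0.68 ± 0.04, adjusted p = 1.3e-08 with RMC-6236). SIX3 and SIX4 fell with the combination by 0.56 and 0.50 on the log2 scale (adjusted p = 6.7e-08 and 8.9e-07). Six4 in KPC cells had 0.679, 0.678 and 0.729 FPKM in control, 1.07, 1.19 and 1.32 with tazemetostat, 0.587, 0.715 and 0.514 with RMC-6236 and 0.762, 0.805 and 0.853 with the combination and came on with tazemetostat alone (0.37 ± 0.07, adjusted p = 0.00084). In tumours Six4 rose with RMC-6236 (0.61 ± 0.19, adjusted p = 0.021), which was lost without control replicate 3 (adjusted p = 0.068), RMC-6236 replicate 3 (0.061) or RMC-6236 replicate 4 (0.069). With the combination its change was 0.49 ± 0.19 (adjusted p = 0.043), lost in 10 settings.

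SOX7 and SOX17 belong to the SOX-F group of endothelial and endoderm factors. In SW1990 SOX7 had 34.0, 36.0 and 34.0 FPKM in control, 25.6, 27.3 and 27.1 with tazemetostat, 16.8, 18.9 and 19.0 with RMC-6236 and 11.4, 11.2 and 11.4 with the combination, and in PSN1 it had 0.300, 0.318 and 0.222 FPKM in control, 1.35, 1.54 and 1.11 with tazemetostat, 0.432, 0.362 and 0.312 with RMC-6236 and 1.29, 1.47 and 1.42 with the combination. The levels stepped down over the arms in SW1990, while in PSN1 both arms with tazemetostat were above 1 FPKM and both without it below 0.5 FPKM. The change with tazemetostat was -0.37 ± 0.05 (adjusted p = 5.4e-05) in SW1990 and 0.86 ± 0.07 (adjusted p = 8.5e-07) in PSN1. SOX21, a neural factor, was on in SW1990 control and fell by 0.61 on the log2 scale with the combination (adjusted p = 7e-06).

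MEIS2 and PITX1 were raised by RMC-6236 in PSN1, by 0.96 ± 0.05 (adjusted p = 1.2e-09) and 0.19 ± 0.03 (adjusted p = 3.1e-05), and the combination lay below RMC-6236 alone for both (-0.45 ± 0.05 and -0.17 ± 0.03). MEIS genes encode homeobox partners of HOX proteins. In SW1990 PITX1 had 24.9, 21.6 and 21.5 FPKM in control, 29.3, 29.4 and 29.4 with tazemetostat, 36.0, 35.9 and 36.5 with RMC-6236 and 47.0, 45.3 and 47.3 with the combination, a separate and higher level in each successive arm (1.01 ± 0.05, adjusted p = 2e-10 for the combination). MEIS2 in SW1990 had 0.736, 0.914 and 0.910 FPKM in control, 0.964, 0.944 and 0.957 with tazemetostat, 0.879, 1.14 and 1.08 with RMC-6236 and 1.64, 1.65 and 1.72 with the combination, and only the combination had every library on (0.53 ± 0.06, adjusted p = 2.4e-06). ALX4, a skull and limb factor that was on in PSN1 alone, rose from 9.73 to 10.4 FPKM in control to 13.2 to 14.2 FPKM with the combination (0.40 ± 0.04, adjusted p = 1.1e-06). LHX2, IRX1, IRX2 and IRX4 stayed below 1 FPKM in all libraries of every model.

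Changes of the set in KPC tumours were accompanied by changes in cell type markers. The summed level of 10 fibroblast markers was 859 to 1180 FPKM in control tumours, 595 to 1320 with tazemetostat, 2970 to 3940 with RMC-6236 and 3290 to 3830 with the combination, and 6 of the 10 rose with RMC-6236. Sums of 5 epithelial markers were 3060 to 3780, 2780 to 4940, 1410 to 1950 and 817 to 1350 FPKM in the same order, and 4 of 5 fell with RMC-6236. For 6 smooth muscle and pericyte markers the sums were 14.2 to 28.5 FPKM in control, 85.6 to 179 with RMC-6236 and 168 to 579 with the combination, with 1 and 5 of 5 tested markers higher. Macrophage markers summed to 331 to 438, 949 to 1330 and 1220 to 1670 FPKM in those arms, with 5 of 5 higher in both. The mesothelial sums were 128 to 181, 80.3 to 97.2 and 32.9 to 74.3 FPKM, where 1 of 3 tested markers fell with RMC-6236, and with the combination 1 fell and 1 rose. Acinar markers reached 68.9 to 2550 FPKM with the combination, where control tumours had 11.8 to 40.6, and islet markers reached at most 753 FPKM, where control had 3.10 to 12.4. The part of these markers in the changes of Irx3, Irx5, Pax9, Foxq1, Foxf1, Dlx3, Osr2 and Meis1 and in the levels of Hand2 in tumours was not tested. In control KPC cells 4 of 10 fibroblast markers were on and LUM, THY1 and POSTN were listed at 0. The RMC-6236 changes of Irx3, Pax9, Foxf1 and Osr2 had the same direction in those cells as in tumours. Foxq1 went the other way (0.61 in cells and -0.61 in tumours), Irx5 was not called in cells (-0.14, adjusted p = 0.087), and Dlx3 and Meis1 were below 1 FPKM in every library of the cells.

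Sox17 was the single gene that crossed from off to on in tumours. It had 0.483, 0.455, 0.447 and 0.321 FPKM in control, 0.699, 0.435, 0.480 and 0.402 with tazemetostat, 0.782, 0.340, 1.11 and 0.971 with RMC-6236 and 1.79, 1.73, 2.07 and 2.26 with the combination. Combination libraries lay above all others, and RMC-6236 overlapped control. The change was 1.05 ± 0.12 (adjusted p = 6.2e-06) against control and 0.73 ± 0.12 (adjusted p = 0.0018) against RMC-6236. The 6 endothelial markers, PECAM1, CDH5, KDR, TEK, VWF and CLDN5, also rose in both comparisons, with summed levels of 8.46 to 14.9 FPKM in control, 9.99 to 12.7 with RMC-6236 and 19.1 to 29.4 with the combination. Their part in the Sox17 change was not tested. In KPC cells the endothelial sum was at most 0.197 FPKM in any arm, and Sox17 stayed below 1 FPKM there. Meis1 rose in tumours too, with 1.35, 1.44, 1.13 and 1.43 FPKM in control, 1.26, 0.880, 1.57 and 1.60 with tazemetostat, 1.77, 2.06, 2.20 and 2.10 with RMC-6236 and 2.53, 3.21, 3.02 and 2.54 with the combination and 0.71 ± 0.10 (adjusted p = 4.2e-05) for the combination.

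A further 8 genes of the set that were off in control tumours reached 1 FPKM in some but not all combination tumours: Gata2, Tbx3, Foxl2, Pax3, Lhx6, Nkx3-2, Emx2 and Hand2. Hand2, a heart and limb factor, was at 1.97, 4.04, 0.358 and 5.26 FPKM there and at 0.166 to 0.419 in control. Combination replicate 3 alone held Foxl2 at 1.72 and Emx2 at 1.26 FPKM, and it had the highest Gata2 (2.12) and Tbx3 (1.31) of any tumour. Both Foxl2 and Emx2 were at most 0.0877 FPKM in all other tumours. These genes did not pass the filter on low values and were not tested.

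Tumours and cultured KPC cells were compared over 16 genes tested in both. Shared and opposite calls were not counted over all genes, so these numbers have no background. With RMC-6236, Osr2 and Foxf1 rose in both, Pax9 and Irx3 fell in both, and Foxq1 rose in cells and fell in tumours. For the combination Osr2 and Foxf1 rose in both, Pax9, Irx3 and Irx5 fell in both, and Gata3, Pitx1, Foxf2, Foxq1 and Nkx2-3 rose in cells and fell in tumours. The tumour calls of Foxq1 and Osr2 with RMC-6236, and of Gata3 and Foxf2 with the combination, were lost when some single libraries were left out.

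Other members of the same families were set beside these. From 107 further genes of these families outside the set, 38, 43, 33 and 38 were tested in PSN1, SW1990, KPC cells and tumours. Tazemetostat raised 19 and lowered 4 in PSN1, raised 17 and lowered 8 in SW1990, and raised 9 and lowered 11 in KPC cells, with medians of 0.12, 0.11 and -0.03. That is 60.5%, 58.1% and 60.6% of those tested, against 46.0%, 37.5% and 44.1% of all genes. The forkhead gene FOXO6 rose with RMC-6236 in PSN1 from a mean of 2.08 to 28.4 FPKM (3.27 on the log2 scale) and in SW1990 from 3.27 to 16.2 FPKM (2.01). MEIS3, a paralog of MEIS2, rose with tazemetostat in both human lines, from 0.137 to 1.64 FPKM in PSN1 and from 0.254 to 1.13 FPKM in SW1990. In tumours Foxa2, an endoderm factor, fell with RMC-6236 from a mean of 16.8 to 6.43 FPKM (-1.26 on the log2 scale).

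The 28 genes of the polycomb machinery were tested in every model. RMC-6236 lowered 13 and raised 11 in PSN1, lowered 16 and raised 9 in SW1990, lowered 13 and raised 11 in KPC cells, and lowered 9 and raised 4 in tumours. The shares called were 85.7%, 89.3%, 85.7% and 46.4%, against 80.4%, 72.4%, 73.7% and 39.4% of all genes. EPOP, a PRC2 accessory protein, fell with RMC-6236 from 7.76 to 2.46 FPKM in PSN1, from 9.84 to 2.85 FPKM in SW1990 and from 2.48 to 0.566 FPKM in KPC cells. BMI1, a subunit of polycomb repressive complex 1, rose with tazemetostat from 24.6 to 35.4 FPKM in PSN1, from 9.80 to 25.8 FPKM in SW1990 and from 13.0 to 21.5 FPKM in KPC cells. In tumours none of the 28 was called with tazemetostat alone, where 0 of all 13545 tested genes were called.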

How the data were processed

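RNA-seq of the PSN1 and SW1990 lines, KPC cells and KPC orthotopic tumours was analysed from gene tables of FPKM values, which the authors deposited. Per the submitters' processing notes reads were checked with FastQC 0.11.2, aligned with STAR 2.5.3a and quantified with StringTie 1.3.1c; a human build is listed for all samples, and the mouse build is not given in the sources used here. Of 67 labelled samples, 52 had a column, matched by its name, and 15 subcutaneous tumours were not analysed here.

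Each table was fitted on log2(FPKM + 1) with limma 3.58.1 in R 4.3.3, with 1 mean per arm over all 4 arms and eBayes with trend and robust settings. Genes with at least 1 FPKM in 3 libraries (4 in tumours) were tested, and p-values were adjusted by Benjamini-Hochberg over all of them per comparison, with a threshold of 0.05. All p-values are two-sided. No read counts were used, so depth is unknown. Genes near the threshold, overlapping genes and antisense genes are uncertain, since the strand setting of the quantification is not stated. The fit was tested on simulated data. Counts split by whether a gene was on in control were added after the values were seen, and were made for the set only. Members and gene lists were chosen with earlier results of these data known. Library values were given for the called genes with the largest changes (up to 6 per comparison), genes that crossed between off and on, and the 5 highest in control, and for some other members for comparison between models. From the other lists up to 4 called genes with the largest change were named, and the same genes in the other models. Replicate numbers do not pair the libraries: within a table, correlations of same-numbered deviations ran from negative to positive, the widest from -0.404 to 0.344 in tumours. The fit was repeated with a pseudocount of 0.1, without the filter, with rescaled libraries, with a replicate block, with plain eBayes, with the compared arms alone and leaving out each library.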

Additional observations from a re-analysis of the deposited data

Results flagged for a closer look

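In 2 of the 84 groups of 4 tumours examined, 1 tumour stood apart from the rest by Dixon's criterion, which flags about 1 in 20 groups by chance. Gata3 was at 1.8 FPKM in control replicate 4, with 0.973 to 1.06 in the other control tumours. Dlx3 was at 2.33 FPKM in combination replicate 3, with 4.77 to 4.96 in the other combination tumours.

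In 23 cases a gene was called in opposite directions in 2 models under the same comparison, with no overlap between the arms in either model. Such cases were not counted over all genes, so the number cannot be read as particular to the set. Pitx1 with the combination, higher in KPC cells and lower in KPC tumours, is left out of these because its arms overlapped in the cells. The values are the log2 change in the second model minus that in the first, and the differences were not tested. SW1990 minus PSN1 gave -0.48 for FOXD1, -0.98 for FOXQ1 and -1.23 for SOX7 with tazemetostat, and -2.28 for FOXQ1, 0.81 for GATA2 and 0.64 for OSR1 with RMC-6236. For the combination against control SW1990 minus PSN1 gave -1.28 for FOXF2, -4.12 for FOXQ1, 1.76 for OSR1 and -2.44 for SOX7. For the combination against RMC-6236 it gave -1.84 for FOXQ1, 0.72 for GATA3, 1.98 for IRX3, 0.90 for IRX5, 0.84 for MEIS2, 1.33 for OSR2, 0.52 for PITX1 and -1.45 for SOX7. KPC tumours minus KPC cells gave -1.23 for Foxq1 with RMC-6236, and -0.90 for Foxf2, -2.25 for Foxq1, -1.47 for Gata3 and -1.41 for Nkx2-3 for the combination against control. Of these, the tumour calls of Foxq1 with RMC-6236 and of Foxf2 and Gata3 with the combination were lost when some single libraries were left out.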

How the results depend on the processing

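The 278 called changes of genes of the set gave 5026 values under the alternatives, of which 4879 kept their direction and call, 147 kept their direction and lost the call, and 0 changed direction. A repeat in which the gene failed the filter gave no value and is not counted as a loss. An example is Osr2 in KPC cells for RMC-6236 against control with the compared arms alone. Leaving out single libraries made up 108 of the losses, in 31 changes, and testing without the filter 19. Without the filter the number of genes called was 19 for tazemetostat in KPC cells, 24 for the combination against control in tumours and 11 for the combination against RMC-6236 in tumours, because more low genes entered. The interaction in tumours had 1 to 4 genes called when single libraries were left out. The other counts stayed within 1.5 times the reported ones. Over all genes, the interaction in tumours had 96 calls with a pseudocount of 0.1, against 252, and the combination against RMC-6236 had 1677 without the filter, against 1101. Rescaling moved the share of calls that were higher from 41.5% to 55.2% for the interaction in PSN1, and in SW1990 from 61.7% to 49.8% for tazemetostat and from 62% to 50.1% for the combination against RMC-6236, and the sign differed for 0 of the 278 changes. With a replicate block, the combination against control had 14 genes called in tumours and 21 in SW1990, the interaction in SW1990 had 9, the combination against RMC-6236 in KPC cells had 14, and the other 16 comparisons had the reported count. FPKM gives no depth, so a value near 0 cannot be given a counting limit.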

Other observations

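Genes of the set that did not pass the filter in tumours still differed in level by arm, and are given as values with no test. Lhx6, a LIM-homeobox factor of interneurons and tooth, was at 0.0792 to 0.169 FPKM in control tumours and 0.599 to 1.003 with the combination, without overlap. Nkx3-2 was at 1.55, 1.83, 0.320 and 0.921 FPKM with the combination, and at 0.112 to 0.464 in control, so the groups overlapped.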
